A study of Camellia reticulata with 27 samples.

Results

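A set of transcripts had a far higher mean in full-bloom petals of the white Camellia reticulata cultivar 'Tongzimian' (TZM) than in any other group. The 150 transcripts described here were chosen for that pattern from 225938 transcripts. The log2(mean FPKM + 1) of each transcript was taken in every group, where FPKM is the number of fragments scaled by transcript length and library size. Its score was the value of TZM at full bloom minus the highest value among the other 8 groups, and the 150 highest scores were taken from the 27218 transcripts with a mean of at least 5 FPKM in TZM at full bloom. The 86 transcripts in the study's co-expression list of anthocyanin pathway transcripts, other selected functions and transcription factors were left out beforehand.

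The study compared the flower color of 3 cultivars by RNA sequencing of petals in 27 libraries, 3 for each of 9 groups. TZM, which is white, was sampled at the full-bloom stage and at the bud stage. 'Shizitou' (SZT), which is red, was sampled at the same stages, and 'Manao' (MN, also called 'Damanao'), a bud variety of SZT with white and red petal regions, was sampled in its white region and its red region at full bloom, at the initial flowering stage, at bud stage 3 and at bud stage 1. Nothing in the labels says that the 3 replicates of a group came from separate plants, so p-values measure only the spread between these libraries. MN is a variety of SZT, so the 7 groups of SZT and MN come from related material, and cultivar and color cannot be told apart in a comparison of TZM with SZT. Petals or petal regions were measured in bulk, in which fewer cells of a type and less RNA per cell cannot be told apart.

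A camellia petal grows and builds its pigment in the closed bud, and it opens, expands and ages at full bloom. Anthocyanins, the red pigments of camellia, are made by the flavonoid pathway, in which chalcone synthase takes the opening step. Where no reference genome is used, transcripts are assembled from the reads themselves, and alleles or splice forms of a gene can then appear as separate transcripts. No name, function or sequence of the 150 transcripts is used here, so they are described by identifier, level, library and the number before the point in the identifier, called the cluster number below.

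The scores reached 10.59 for Cluster-79961.12, with a median of 4.65. The last 3 transcripts inside the threshold were Cluster-570.0 and Cluster-6248.19 at 3.91 each and Cluster-94.0 at 3.89. The first 3 outside it, Cluster-97816.7, Cluster-74284.22 and Cluster-112.0, had scores of 3.88 each, so the set has no natural edge there. The same rule applied to another group gave a lower score at the same rank in each case, with 2.94 in TZM buds, 2.40 in SZT at full bloom and between 0.97 and 2.22 in the other 6 groups. A score of at least 3 was held by 348 transcripts in TZM at full bloom, against 139 in TZM buds, 89 in MN at bud stage 3 and 82 in MN at bud stage 1. Most groups of SZT and MN were scored against a group of related material at the same stage, whereas each TZM group had none. How far this lowered their scores was not tested, so nothing is read from the ranking.

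The members covered a wide range of abundance in TZM at full bloom, with group means between 13.8 and 11175 FPKM and a median of 43.8 FPKM. A mean of at least 100 FPKM was reached by 43 members and one of at least 1000 FPKM by 8. The 10 most abundant members held 79.4% of the members' summed FPKM. Outside TZM at full bloom, 47 members were listed at 0 in all 24 other libraries, 29 were above 0 in 1 to 3 of them, and 35 were above 0 in 12 or more. A value of 0 in this kind of table can also be a failed estimate. Apart from the score, no fold change of a member is therefore given against a group listed at 0 in all its libraries. For 119 members the lowest library of TZM at full bloom was above the highest of the 24 others, a pattern that 8.81% of the 27218 candidate transcripts showed and that the rule itself favours. The remaining 31 overlapped. All 150 passed the minimum of 5 FPKM through TZM at full bloom by construction.

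Cluster-79961.12 had the highest score and stood far from every other library. Its FPKM was 2978, 6066 and 3197 in replicates 1, 2 and 3 of TZM at full bloom, while the highest of the 24 other values was 4.61 in MN's red region. Cluster-96668.0 had 436.75, 784.93 and 703.93 FPKM in TZM at full bloom and at most 8.19 FPKM elsewhere. These 2 members were high in all 3 replicates. The same was true at a lower level of Cluster-5064.10, with 104.45, 141.27 and 122.75 FPKM, and of Cluster-18245.18, with 121.49, 155.34 and 125.07 FPKM in TZM at full bloom. Cluster-3996.2 (46.36, 156.81 and 185.78 FPKM), Cluster-67916.22 (59.20, 127.10 and 93.66 FPKM) and Cluster-77848.5 (124.37, 287.38 and 110.43 FPKM) also kept their 3 libraries above all others.

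Other members near the top were not evenly high. Cluster-79082.5 was at 10.38 FPKM in replicate 1 of TZM at full bloom and at 714.29 and 614.89 FPKM in replicates 2 and 3. Cluster-79082.3 had 29.78, 715.56 and 629.06 FPKM in the same libraries. Both share a cluster number and were low in the same replicate. Cluster-21654.0, with 5.43, 922.43 and 1451 FPKM, was lower in replicate 1 of TZM at full bloom than in replicate 1 of MN's white region, where it had 20.06 FPKM. Cluster-104926.3 had 0.96, 357.52 and 582.85 FPKM in TZM at full bloom, against 7.48 FPKM in that MN library. Cluster-42729.5 was listed at 0 in replicates 1 and 2 of TZM at full bloom and had 622.19 FPKM in replicate 3, so its place in the set rests on 1 library.

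**Figure D1:**
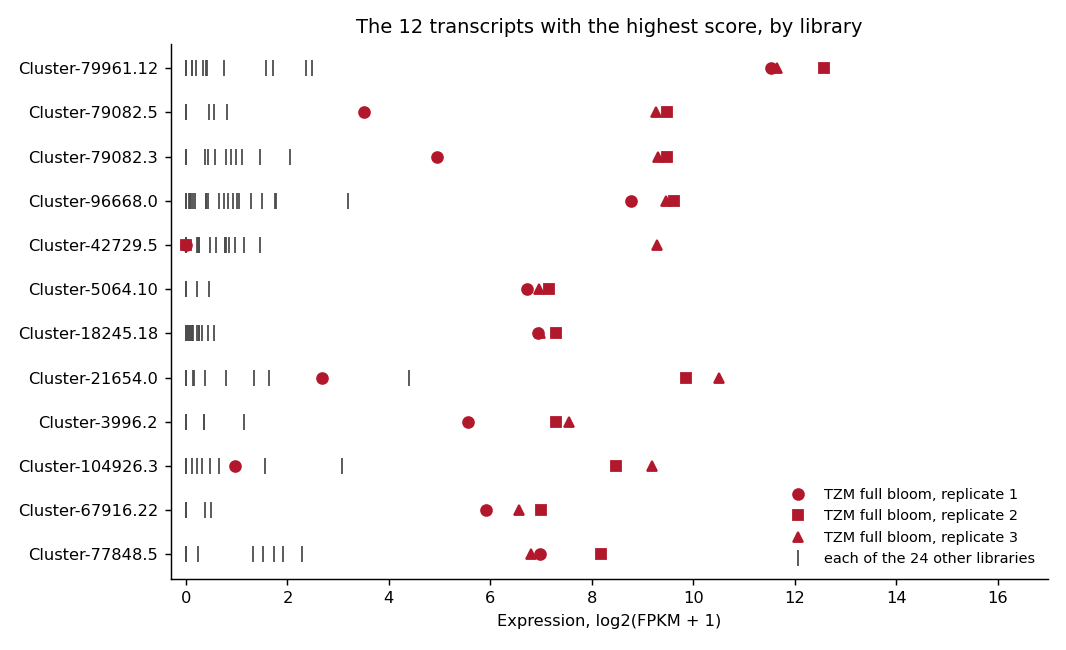
Expression of the 12 transcripts with the highest score on a log2(FPKM + 1) axis, with 1 row per transcript, a red symbol for each of the 3 TZM full-bloom libraries and a grey tick for each of the 24 other libraries. Cluster-79961.12 had all 3 red symbols far to the right of the ticks, while replicate 1 (circle) of Cluster-79082.5, Cluster-21654.0 and Cluster-104926.3 lay well left of replicates 2 and 3, and Cluster-42729.5 was above 0 in replicate 3 only among the 3 TZM full-bloom libraries.

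The 6 most abundant members were Cluster-79961.12 and 5 transcripts of Cluster-6248. Cluster-6248.19 had 2571, 17456 and 13497 FPKM in the 3 TZM full-bloom libraries, Cluster-6248.24 had 2415, 12303 and 14396 FPKM, and Cluster-6248.11 had 1871, 11149 and 13194 FPKM. Cluster-6248.27 (1538.5, 7269 and 10179 FPKM) and Cluster-6248.10 (1293, 4867 and 4912 FPKM) were likewise lowest in replicate 1. Outside TZM at full bloom these 5 transcripts were high in some full-bloom libraries and low or listed at 0 in buds. Cluster-6248.19 reached 2118 FPKM in replicate 1 of SZT at full bloom and 1021 FPKM in replicate 2 of MN's red region, but was listed at 0 in all 3 libraries of MN at bud stage 3.

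Summed over all 150 members, FPKM was 20073, 78695 and 82441 in TZM at full bloom, or 1.76%, 6.01% and 6.24% of the library's FPKM. The mean was 60403 ± 34977 FPKM in TZM at full bloom, against 175.3 ± 104 FPKM in TZM buds, 2310 ± 3083 FPKM in SZT at full bloom and 56.4 ± 48.8 FPKM in SZT buds (SD, n = 3 each). In MN the sum was 993 ± 1135 FPKM in the white region, 1541 ± 1021 FPKM in the red region, 122.4 ± 2.33 FPKM at the initial flowering stage, 39.9 ± 13.5 FPKM at bud stage 3 and 50.04 ± 13.6 FPKM at bud stage 1 (SD, n = 3 each). Every full-bloom library of SZT and MN, with 302.61 FPKM or more, was above every bud library, with 281.80 FPKM or less. This rested on the 10 most abundant members. Without them the sum was 172.90, 40.09 and 32.09 FPKM in SZT at full bloom and 391.66, 49.63 and 45.71 FPKM in MN's white region, against 46.10, 121.77 and 82.17 FPKM in TZM buds. Of the 103 members with a value outside TZM at full bloom, the highest other group was a full-bloom group for 59, a bud group for 40 (TZM buds for 23) and MN at the initial flowering stage for 4.

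**Figure D2:**
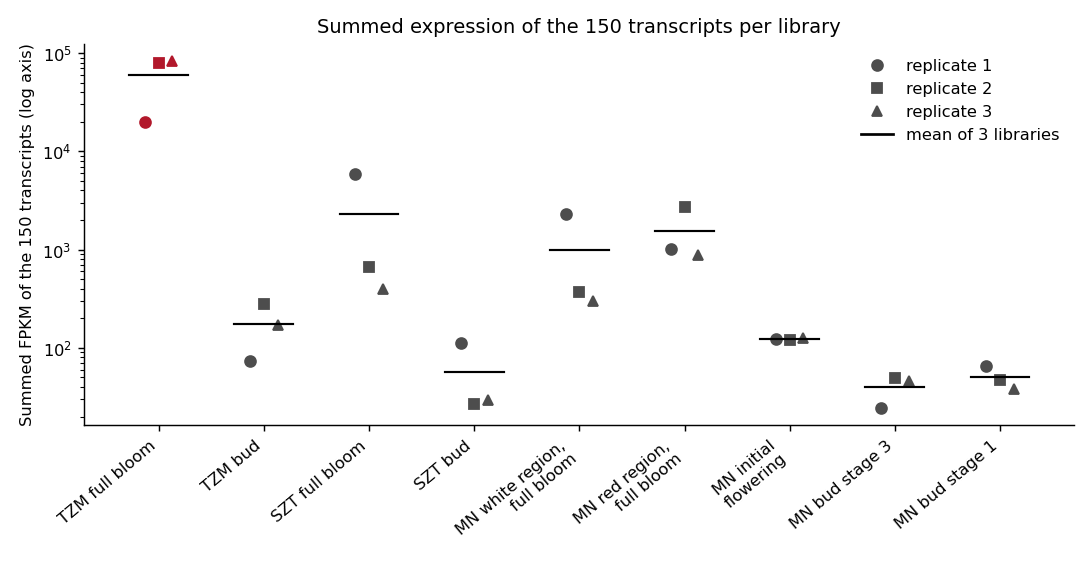
Summed FPKM of the 150 transcripts in each of the 27 libraries on a log axis, with the 9 groups side by side, a symbol per replicate and a line at the mean of 3 libraries. TZM at full bloom lay at 20073, 78695 and 82441 FPKM, above every other library. Replicate 1 of SZT at full bloom (5866 FPKM), replicate 1 of MN's white region (2303 FPKM) and replicate 2 of MN's red region (2718 FPKM) were the highest of the others.

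Replicate 1 of TZM at full bloom stood apart from the other two for these transcripts. Across the 27218 candidate transcripts, which are not independent of each other, the correlation of log2 values was 0.658 between replicates 1 and 2, 0.643 between 1 and 3 and 0.798 between 2 and 3. Across all 55099 transcripts that passed the filter of the tests, each TZM full-bloom library was still nearest to another of its own group, with a correlation of 0.837 for replicate 1 and 0.891 for replicates 2 and 3, and the nearest library of another group, from MN's red region in each case, reached at most 0.698. Replicate 1 was the lowest of the 3 in 101 of the 150 members, compared with 29.6% of all candidates. It was under 25% of both other libraries in 53 members, or 35.3%, compared with 3.69% of all candidates. The highest TZM full-bloom value was at most 2 times the lowest in 36 members (24%), compared with 64.2% of all candidates. The median coefficient of variation over the 3 libraries was 66.2% for the members and 24.96% for all candidates.

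The 3 most even members were Cluster-75143.3, with 28.87, 30.21 and 28.25 FPKM in TZM at full bloom, Cluster-100.0, with 29.49, 32.09 and 31.58 FPKM, and Cluster-60403.67, with 91.49, 84.73 and 84.80 FPKM. Cluster-100.0 was listed at 0 in every other library, whereas Cluster-60403.67 was above 0 in all 24. At the other end, Cluster-42729.5, Cluster-4442.0 (0, 0 and 178.22 FPKM) and Cluster-19821.2 (96.69, 0 and 0 FPKM) had a value in a single TZM full-bloom library. In 10 members (6.67%) over 90% of the FPKM lay in 1 TZM full-bloom library, compared with 2.34% of all candidates. In all, 133 members were above 0 in all 3.

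Of the 53 members low in replicate 1, 11 were listed at 0 in all libraries outside TZM at full bloom. A mean of at least 1 FPKM was reached by 14 of the 53 in SZT at full bloom, 22 in MN's white region and 20 in MN's red region. The sum over the 53 was also uneven in the other full-bloom groups, but it does not describe each member. Their summed FPKM was 9086, 59118 and 64661 in replicates 1, 2 and 3 of TZM at full bloom, against 5543, 468 and 298 in SZT at full bloom, 2027, 239.6 and 153.8 in MN's white region and 829.98, 2539 and 724 in MN's red region. Without the 5 of them from Cluster-6248, the sums were 689.87, 10834 and 13153 FPKM in TZM, 180.11, 26.7 and 26.4 in SZT, 389.24, 17.99 and 13.84 in MN's white region and 93.95, 220.16 and 86.05 in MN's red region. The share of a library taken by a few transcripts also differed between these libraries. The 10 most abundant transcripts of a library held 5.19%, 12.9% and 13.7% of its FPKM in replicates 1, 2 and 3 of TZM at full bloom, against 8.34% in replicate 1 of SZT at full bloom, 13.7% in replicate 1 of MN's white region and 12.1% in replicate 2 of MN's red region. It was above that of replicate 1 of SZT at full bloom in some libraries with little member FPKM, at 9.93% and 8.88% in replicates 1 and 2 of MN at bud stage 3, where all 150 members summed to 24.42 and 49.39 FPKM. Members can be among the 10 most abundant transcripts of a library, so this share and the members' sums are not separate measures. The part of this share in the members' values was not tested.

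By contrast, the 36 members within 2-fold of each other summed to 2866, 3547 and 2970 FPKM in TZM at full bloom. Outside TZM at full bloom the sum of the 36 was at most 51.1 FPKM, in replicate 2 of TZM buds, and 15 of them were listed at 0 in all other libraries.

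**Figure D3:**
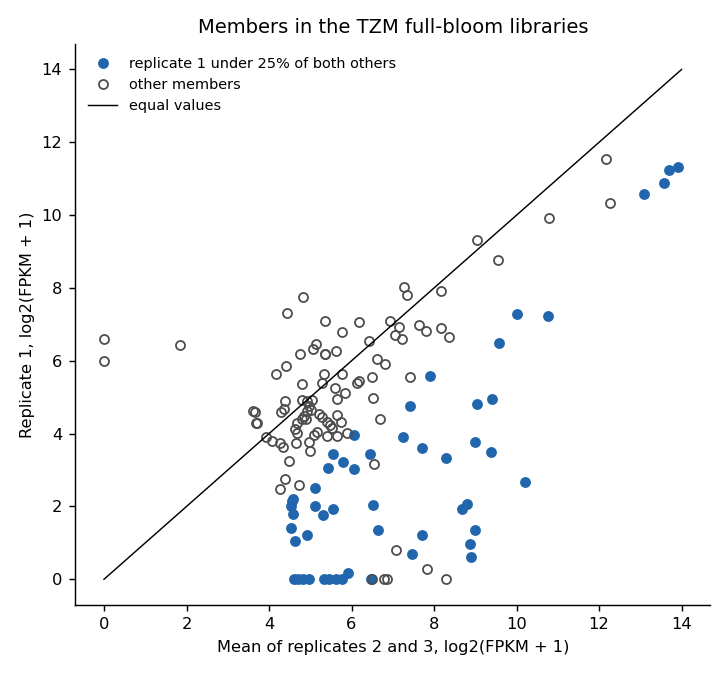
Replicate 1 (vertical axis) against the mean of replicates 2 and 3 (horizontal axis) of TZM at full bloom for the 150 members, both as log2(FPKM + 1), with a line at equal values. The 53 filled points, members whose value in replicate 1 was under 25% of both others, lay well below the line and included 4 of the most abundant transcripts of Cluster-6248, all above 10 on the vertical axis.

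To see how far the choice carried over to libraries it had not used, the rule was applied with 1 replicate number left out of every group, and the 150 transcripts so chosen were read in the libraries left out. With replicate 3 left out, 135 of 150 were above all 8 held-out libraries of the other groups, compared with 22.2% of all candidates, and their median score was 4.31. With replicate 2 left out, 123 were above all 8, compared with 23.3% of candidates, and the median score was 4.60. With replicate 1 left out, 106 were above all 8, compared with 22.7% of candidates, the median score was 1.95 and 23 of the 150 were listed at 0 in replicate 1 of TZM at full bloom. These lists shared 117, 116 and 123 transcripts with the 150 members.

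The members fell under 117 cluster numbers, of which 96 held 1 member, 15 held a pair and 6 held 3 or more. Cluster-6248 held 8 of its 37 transcripts, Cluster-79082 held 4 of 6, and Cluster-104926 (3 of 9), Cluster-73367 (3 of 4) and Cluster-90216 (3 of 7) followed. No member shared a cluster number with the 86 transcripts named by the study. In all, 45 members (30%) were the only transcript under their number, compared with 20.2% of all candidates, and 24 of these were listed at 0 outside TZM at full bloom.

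Within a cluster number the members were often low in the same TZM full-bloom library. In Cluster-79082, Cluster-79082.1 had 150.07, 1786 and 1689 FPKM and Cluster-79082.2 had 12.76, 480.03 and 537.83 FPKM in replicates 1, 2 and 3, so that all 4 members of this cluster were lowest in replicate 1. In Cluster-104926, Cluster-104926.7 (0.52, 376.93 and 571.39 FPKM) and Cluster-104926.6 (0, 75.63 and 100.96 FPKM) were nearly absent from replicate 1. The 3 members of Cluster-90216 were also lowest there, with 27.36, 460.91 and 582.75 FPKM for Cluster-90216.5. Cluster-73367.0 had 33.53, 75.27 and 37.58 FPKM in TZM at full bloom and was listed at 0 in all other libraries. It was also lowest in replicate 1, but close to its value in replicate 3. In Cluster-6248, Cluster-6248.28 was more even (965, 1542 and 1981 FPKM), while Cluster-6248.29 had 8.05, 7.35 and 177.34 FPKM, with replicate 3 alone high.

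Many cluster numbers, taken as a whole, stood out less in TZM at full bloom than the members they held. For the 71 cluster numbers that also held transcripts outside the set, the score of the whole cluster, computed from summed FPKM in the same way, had a median of 0.99. It was at least 3 for 18 of them, at least 1 for 35 and under 0 for 24. In 32 of the 71 the members made up the larger part of the cluster's FPKM in TZM at full bloom. Cluster-6248 as a whole averaged 97690 FPKM in TZM at full bloom, of which the members held 42.3%, against 1736 FPKM in TZM buds, 22184 FPKM in SZT at full bloom, 18900 FPKM in MN's white region and 23966 FPKM in MN's red region. It took 3.19%, 9.29% and 10.2% of all FPKM in replicates 1, 2 and 3 of TZM at full bloom.

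A few clusters, picked after their values were seen, show how the members stood beside the other transcripts of their number. Cluster-89279.2 had 260.37, 192.59 and 116.8 FPKM in TZM at full bloom and at most 6.95 FPKM in any other library. The other 3 transcripts of Cluster-89279, summed, had 2.14, 1.59 and 1.2 FPKM in TZM at full bloom, against 1008, 818 and 406 FPKM in SZT at full bloom and 815.57, 1011 and 965 FPKM in MN's white region. In Cluster-89279 the member was thus high in TZM at full bloom, where the other transcripts were low, and low in SZT and MN at full bloom, where they were high. Cluster-27503.1 and Cluster-27503.15, summed, had 71.4, 106 and 77.7 FPKM in TZM at full bloom and were listed at 0 in all libraries of SZT and MN. The other 16 transcripts of that cluster had 106, 46.4 and 36.7 FPKM in TZM at full bloom, against 667, 1569 and 869 FPKM in SZT at full bloom. In Cluster-79961, whose members had 2986, 6093 and 3214 FPKM in TZM at full bloom, the other 12 transcripts had 3975, 4192 and 2893 FPKM there and 6983, 14615 and 11288 FPKM in TZM buds. Whether such pairs are alleles of a gene was not tested.

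**Figure D4:**
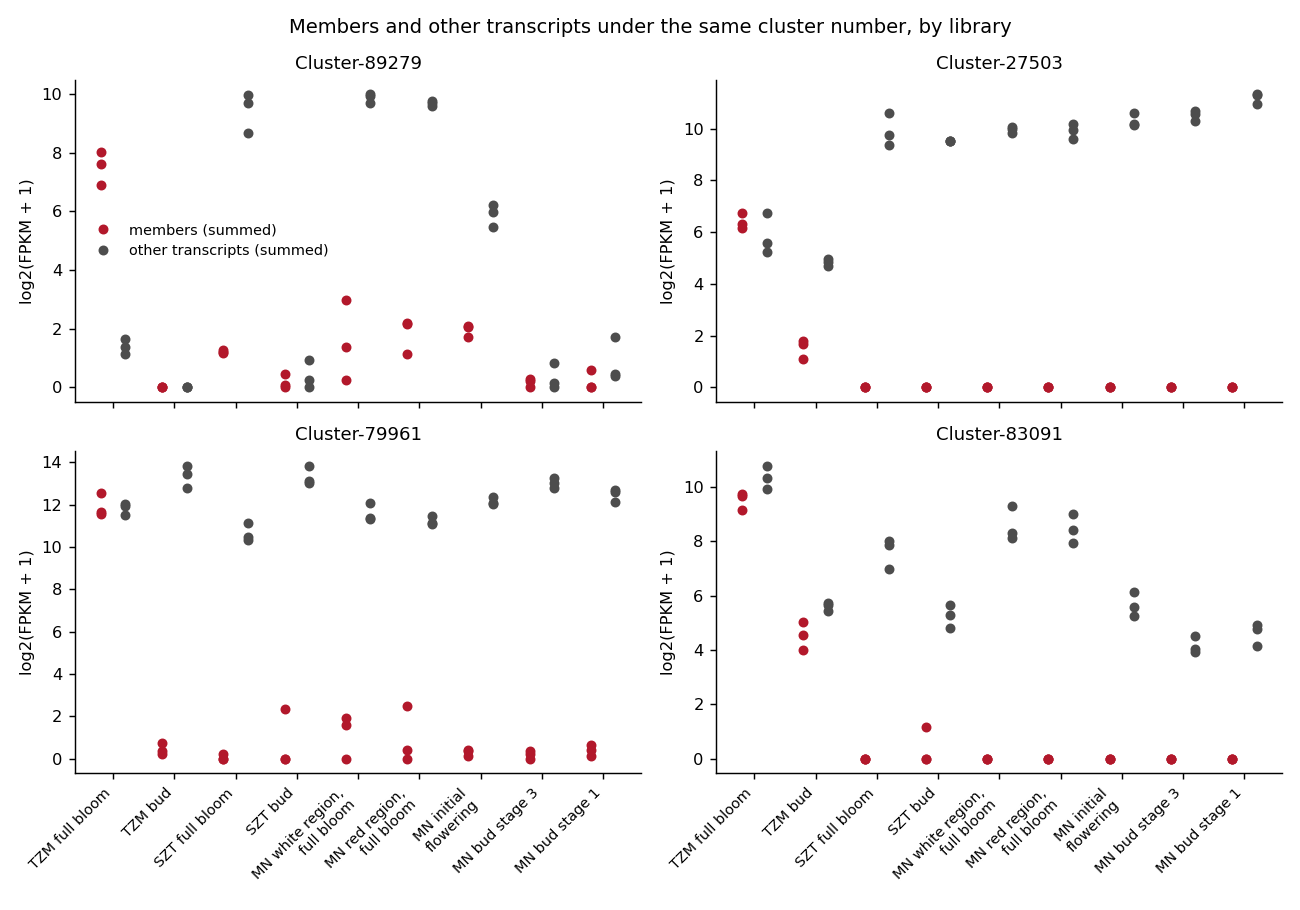
Summed members (red) and summed other transcripts (grey) of 4 cluster numbers in the 27 libraries, as log2(FPKM + 1), with the 9 groups on the horizontal axis and 1 point per library. In Cluster-89279 and Cluster-27503 the other transcripts lay far higher in the full-bloom groups of SZT and MN than in TZM at full bloom. In Cluster-79961 they were high in every group, and in Cluster-83091 both parts were highest in TZM at full bloom. The 4 clusters were picked after their values were seen.

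The other transcripts of the members' clusters were compared between groups as sums, 1 per cluster, in the same limma fit as all transcripts. Of the 71 sums, 62 passed the filter of a mean of at least 5 FPKM in at least 1 group. A call required an adjusted p of 0.001 or less and a difference of 1 or more, in size, on the log2 scale. The sums for TZM at full bloom come from the libraries that chose the members, and reads can be divided between near-identical transcripts, so these counts describe the clusters and are no independent evidence on the members.

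Between TZM at full bloom and TZM buds, 20 of the 62 sums were called, 19 higher and 1 lower, where 17.9% of all 55161 features were called (7.09% higher and 10.8% lower). The median log2 difference was 1.35 over the sums and -0.09 over all features. The sum of Cluster-3931 had 831.04, 6963 and 8622 FPKM in TZM at full bloom, against 0.19, 0.07 and 2.93 FPKM in TZM buds, a log2 difference of 11.07 (SE 1.58). Cluster-108464 had 457, 1353 and 968 FPKM at full bloom, against 0.08, 0.07 and 0.08 FPKM in buds (9.61, SE 0.47), and Cluster-96668 had 1602, 4069 and 3093 FPKM, against 1.27, 2.70 and 4.08 FPKM (9.61, SE 0.51). The other transcripts of these clusters were thus themselves nearly absent from TZM buds. Cluster-79961 was the sum called lower, at -1.53 (SE 0.32), and it lost the call without TZM_Bud replicate 2, TZM_Bud replicate 3 or any of the TZM full-bloom replicates.

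Between TZM and SZT at full bloom, 8 of the 62 sums were called, 5 higher and 3 lower, where 18.3% of all features were called (8.76% higher and 9.51% lower). The higher sums included Cluster-106460, with 616.02, 308 and 223 FPKM in TZM, against 13.93, 9.20 and 5.97 FPKM in SZT (5.10, SE 0.30), and Cluster-24680, with 3.53, 28.29 and 24.39 FPKM in TZM, against 0, 0.12 and 0 FPKM in SZT (3.85, SE 0.44). Cluster-13427 was higher by 2.96 (SE 0.52), a call lost without SZT_Full replicate 2, SZT_Full replicate 3 or TZM_Full replicate 2. The lower sums were those of Cluster-89279 (-8.06, SE 0.34), Cluster-27503 (-4.07, SE 0.30) and Cluster-93726 (-3.34, SE 0.65), the last lost without replicates 2 or 3 of either group. The count depended on single libraries. It was 20 without replicate 1 of TZM at full bloom, 15 without replicate 1 of SZT at full bloom and 5 without SZT replicate 2 or 3.

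TZM at full bloom was also compared with MN's white region. The paper calls both white, but its color card placed TZM petals in a red-purple group and MN's white region in a white group. Here 10 sums were called, 7 higher and 3 lower, where 13.2% of all features were called (6.77% higher and 6.46% lower). Cluster-106460 was higher again, with 13.92, 21.22 and 26.80 FPKM in MN's white region (4.06, SE 0.30), and so was Cluster-24680 (3.90, SE 0.44). Among the higher sums Cluster-74 had the largest difference, 6.96 (SE 1.49), with 1028, 246 and 408 FPKM in TZM, against 0, 0.20 and 44.27 FPKM in MN's white region. The call of Cluster-74 was lost without replicates 1 or 2 of MN's white region or any TZM full-bloom replicate. The lower sums were again Cluster-89279 (-8.47, SE 0.34), Cluster-27503 (-4.11, SE 0.30) and Cluster-93726 (-3.88, SE 0.65). Both comparisons share the TZM full-bloom libraries. The count was 6 without replicate 2 of MN's white region.

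SZT at full bloom and SZT buds share no library with TZM, though the spread in the test came from all 27 libraries. Between these groups 21 of the 62 sums were called, 16 higher and 5 lower. Of all features, 26.8% were called (10.5% higher and 16.4% lower). This comparison was chosen after the data were seen. The other transcripts of Cluster-89279 had 1008, 818 and 406 FPKM in SZT at full bloom, against 0.92, 0 and 0.18 FPKM in SZT buds, a log2 difference of 9.05 (SE 0.34, adjusted p = 9.07e-14 by limma). Cluster-50894 had 70168, 14019 and 10074 FPKM at full bloom, against 108.4, 41.4 and 62.1 FPKM in buds (8.34, SE 0.68, adjusted p = 3.12e-09 by limma). For Cluster-96668 the values were 1341, 831.26 and 1401 FPKM, against 15.17, 6.61 and 1.42 FPKM (7.44, SE 0.51, adjusted p = 2.70e-10 by limma). Cluster-79961 fell by 2.68 on the log2 scale (SE 0.32), Cluster-21293 by 1.61 (SE 0.19) and Cluster-106460 by 1.39 (SE 0.30), the last a call lost when any single library of the pair of groups was left out except SZT_Full replicate 1.

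Of the 20 sums called from bud to full bloom in TZM, 13 were also called in SZT, or 65% of the TZM list and 61.9% of the SZT list. All 13 had the same direction in both cultivars, 12 higher and 1 lower at full bloom. Of all features called in TZM, 47.8% were also called in SZT, or 31.9% of the SZT list, and 92.3% of those called in both had the same direction. Nothing particular to the members' clusters is read from the overlap. They included Cluster-6248, whose other transcripts had 31466, 17956 and 10535 FPKM in SZT at full bloom, against 467, 1071 and 484 FPKM in SZT buds. The change from bud to full bloom, TZM minus SZT, differed between the cultivars for 6 sums, 4 with a higher and 2 with a lower change in TZM, where 13.0% of all features were called (6.89% higher and 6.15% lower).

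**Figure D5:**
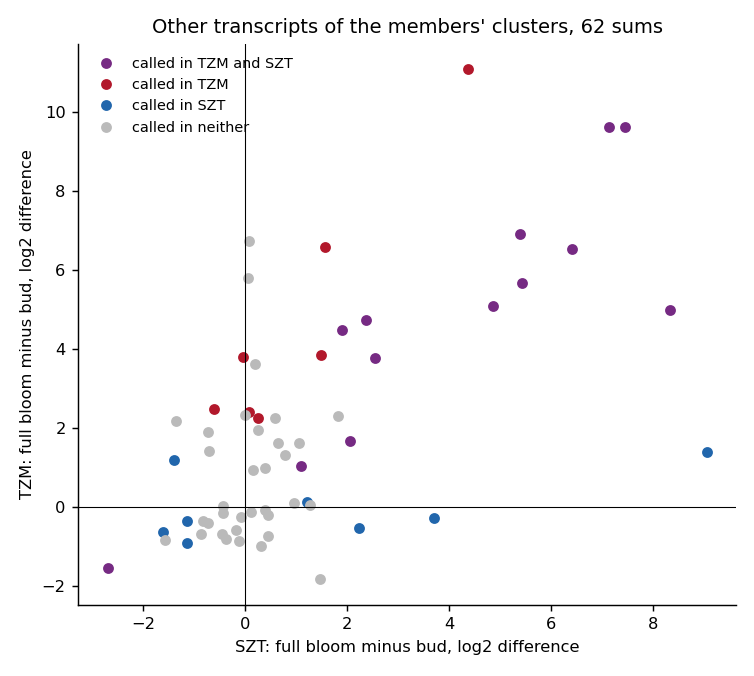
Log2 difference between full bloom and bud in TZM (vertical axis) and in SZT (horizontal axis) for the 62 sums of other transcripts, colored by the cultivar in which the sum was called. The 13 sums called in both lay in the upper right or, for Cluster-79961, in the lower left, while Cluster-89279 lay far right at 9.05 in SZT.

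The members themselves were tested only between groups other than TZM at full bloom. The spread in each test was still estimated from all 27 libraries. The TZM full-bloom libraries that chose the members thus enter every SE and p-value here, and the counts are not independent of them. In SZT, 7 of the 150 members were higher at full bloom than in buds and none was lower, and 15 had an unadjusted p under 0.05 by limma. Of all features, 26.8% were called, 10.5% higher and 16.4% lower. The rule chose members that are lower in these groups than in TZM at full bloom. For 75 of the 150 the difference was exactly 0, so nothing is read from their lower share. Of the 7, Cluster-6248.19, Cluster-6248.11, Cluster-6248.24, Cluster-6248.10 and Cluster-6248.27 share a cluster number. Cluster-6248.19 had 2118, 63.27 and 43.20 FPKM in SZT at full bloom, against 11.30, 0 and 0 FPKM in SZT buds (log2 difference 6.30, SE 1.39, adjusted p = 0.000718 by limma). Cluster-6248.11 had 1032, 47.12 and 40.82 FPKM, against 13.31, 0 and 0 FPKM (5.72, SE 1.27, adjusted p = 0.000728 by limma). Cluster-6248.24 had 1501, 207 and 124.26 FPKM, against 25.71, 6.97 and 2.79 FPKM (5.19, SE 0.92, adjusted p = 7.10e-05 by limma). In these 3 transcripts replicate 1 of each group was far above replicates 2 and 3. The calls of Cluster-6248.19 and Cluster-6248.11 were lost without SZT_Full replicate 1, SZT_Bud replicate 2 or SZT_Bud replicate 3, and the count was 3 in each of these cases. The called members outside this cluster were Cluster-93818.4 and Cluster-60403.67. Cluster-60403.67 had 6.50, 3.52 and 3.01 FPKM in SZT at full bloom, against 0.41, 0.30 and 0.08 FPKM in SZT buds.

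Between the bud stages of the cultivars, 8 members were higher in TZM than in SZT and none was lower, where 15.0% of all features were called, 6.50% higher and 8.46% lower. For 66 members the difference was exactly 0. An unadjusted p under 0.05 was reached by 16. Cluster-83091.3 had 10.14, 26.69 and 18.68 FPKM in TZM buds, against 1.21, 0 and 0 FPKM in SZT buds (log2 difference 3.81, SE 0.29, adjusted p = 2.18e-09 by limma). Cluster-6248.28 had 5.42, 43.08 and 21.56 FPKM, against 3.47, 0 and 0 FPKM (3.49, SE 0.52, adjusted p = 2.02e-05 by limma), and Cluster-89808.9 had 3.56, 15.29 and 6.63 FPKM, against 0.57, 0 and 0 FPKM (2.83, SE 0.35, adjusted p = 1.81e-06 by limma). The groups did not overlap in any of these 3, and the TZM bud values were far under those of TZM at full bloom, where Cluster-83091.3 had 632.60, 631.36 and 423.63 FPKM. Cluster-65892.0, Cluster-83091.0, Cluster-25344.1, Cluster-60403.67 and Cluster-27503.1 were the other members called.

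In MN no member was called between the initial flowering stage and bud stage 3 by limma, where 16.4% of all features were called (6.90% higher and 9.48% lower), and 5 members had an unadjusted p under 0.05. No member was called between MN's white and red regions either, where 0.0363% of all features were called (0.00363% higher and 0.0326% lower in the white region) and 4 members had an unadjusted p under 0.05. The difference was exactly 0 for 89 members between the stages and for 72 between the regions. The rule chose members that are lower in all these groups than in TZM at full bloom. The spread of the TZM full-bloom libraries also enters these tests. Cluster-104926.7, listed at 0 in every library of both MN stages, had an SE of 1.51 between them. The lack of calls follows in part from that choice and is not set against the share of all features. The summed member FPKM was 2303, 373 and 303 in the white region and 1014, 2718 and 891 in the red region, which overlap.

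The transcripts that the study had named for the flavonoid pathway were left out of the members by the rule, and their levels are given beside them. They were chosen by the study on these libraries and are not independent evidence of a direction. Of 20 transcripts, 14 were lower and 1 was higher in TZM at full bloom than in TZM buds. Of all features, 17.9% were called in this comparison, 10.8% lower and 7.09% higher. The paper describes a fall from bud to full bloom for most pathway genes, without limiting it to TZM. The lower ones were 5 of 6 for chalcone synthase (CHS), all 6 for flavanone 3-hydroxylase (F3H), 2 of 3 for dihydroflavonol 4-reductase (DFR) and 1 of 3 for anthocyanidin synthase (ANS), enzymes on the path to anthocyanidins. The ANS transcript Cluster-21086.8 had 3.34, 3.18 and 2.17 FPKM in TZM at full bloom, against 2225, 1804 and 1909 FPKM in TZM buds (SE 0.45 on the log2 scale, adjusted p = 4.05e-12 by limma). For the CHS transcript Cluster-72978.11 the values were 8.94, 12.59 and 13.39 FPKM, against 2571, 1832 and 2179 FPKM (-7.44, SE 0.24, adjusted p = 1.30e-14 by limma). The transcript called higher, Cluster-15097.15, is one of 2 for anthocyanidin reductase (ANR), which turns anthocyanidins into flavan-3-ols. It had 4.67, 34.84 and 28.84 FPKM in TZM at full bloom and was listed at 0 in all 3 TZM bud libraries (adjusted p = 0.00068 by limma). The other ANR transcript, Cluster-15097.13, had 3.29, 34.66 and 27.35 FPKM in TZM at full bloom and was also listed at 0 in TZM buds. It missed the call (adjusted p = 0.00333 by limma). Like many of the members, both ANR transcripts were lowest in replicate 1.

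The libraries differed little in their totals, with 1117467 to 1320744 FPKM over all transcripts, of which 126900 to 148030 had a value above 0. Read totals are not used here, so the depth behind a single value is unknown and low values are the least precise. The pseudocount of 1 makes log2 differences of low transcripts smaller than the true change.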

How the data were processed

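Per the labels and the study's methods, total RNA of petals was enriched for mRNA and sequenced in 27 libraries. Reads were trimmed by the authors (Trimmomatic 0.36), Trinity built the transcripts without a reference, and reads were then mapped back. No source used here names the mapper or the quantifier. The deposited values are FPKM as computed by the authors, rounded to 2 decimals. Each library took its group from its title, and 0 columns were left over.

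The 150 members were taken by score as described above. Sums were made over the transcripts that share a cluster number with a member, a number that no source used here explains. The test of differences was limma 3.58.1 (R 4.3.3), fitted to log2(FPKM + 1) of all 27 libraries with a mean for each group and a trend on expression, for 55161 features with a mean of at least 5 FPKM in at least 1 group. A call needed a log2 difference of 1 or more in size and a p, adjusted by Benjamini-Hochberg, of 0.001 or less. On simulated data for TZM at full bloom against TZM buds over 55099 transcripts, 81 of 200 changes of 2 on the log2 scale were called, with 1 false call. No other transcript differed between these groups in the simulation, and its noise was drawn independently for each value. In the real comparison 17.9% of features were called, so neither figure carries over to it. Tables and plots were made with pandas 2.3.3, numpy 2.4.6 and matplotlib 3.10.9 in Python 3.11.15.

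The members, lists and comparisons were chosen with earlier results of these data known. Transcripts named singly were the 12 highest scores, the 6 most abundant, those next to the threshold, the 3 most and 3 least even, members of the 5 largest clusters, and up to 3 called features per direction and comparison. Alternatives were other pseudocounts, filters, thresholds, scaling, a block on replicate number, a fit to the compared libraries alone and each library left out. Metabolite data and functional annotation were not analysed here.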

Additional observations from a re-analysis of the deposited data

Results flagged for a closer look

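For 6 sums of other transcripts under the members' cluster numbers, the change from bud to full bloom differed between TZM and SZT, tested as the difference of the 2 changes by limma over all 55161 features, of which 13.0% were called. The difference, TZM minus SZT on the log2 scale, was -7.66 (SE 0.49, adjusted p = 8.67e-10) for Cluster-89279 and -2.76 (SE 0.52, adjusted p = 0.000354) for Cluster-75143. It was 3.85 (SE 0.62) for Cluster-24680, 2.58 (SE 0.43) for Cluster-106460, 2.58 (SE 0.37) for Cluster-77848 and 2.36 (SE 0.50, adjusted p = 0.000933) for Cluster-83091. The calls of Cluster-75143 and Cluster-83091 were each lost when any of several single libraries was left out. The count was 12 without TZM_Full replicate 1 and 11 without SZT_Bud replicate 2. The TZM full-bloom libraries that enter these values also chose the clusters.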

How the results depend on the processing

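The set of 150 itself depended on the scale. With a pseudocount of 0.01 it shared 61 transcripts with the main list, and with the lowest TZM full-bloom library in place of the mean, an alternative chosen after the data were seen, it shared 88. Leaving out 1 library it shared 127 to 150. Counts below are for SZT full bloom against bud (members), TZM bud against SZT bud (members), MN initial flowering against bud stage 3 (members), the sums in TZM full bloom against TZM bud, against SZT full bloom and against MN's white region, and the difference between cultivars. With an adjusted p under 0.05 they were 12, 14, 3, 35, 33, 23 and 26. A fit on the compared libraries alone gave 1, 0, 0, 10, 2, 1 and 3. A pseudocount of 0.01 moved TZM bud against SZT bud to 13, MN initial flowering to 2 and the difference between cultivars to 3, and no filter moved SZT full bloom against bud to 3. Leaving out 1 library gave 3 to 7, 7 to 9, 0, 17 to 26, 5 to 20, 6 to 11 and 4 to 12. The replicate numbers did not pair the libraries (correlations between -0.22 and 0.05 over 21 pairs), and with the replicate number as a block the counts were 7, 8, 0, 20, 9, 9 and 6, each within 1.5 times the main count. Of 28 results, each for a called feature in 1 comparison and with some features repeated, 9 kept call and direction under all alternatives and none was reversed. The differences between cultivars flagged above are not among them. Of the 28 results, 19 lost the call in the fit on the compared libraries alone. That fit has fewer libraries to estimate the spread and leaves out the spread of the other groups. The cause of these shifts was not tested.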
